A study of Mus musculus with 19 samples.

Results

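The genes described here are 7 members of the membrane-spanning 4-domain family A that lie in one cluster on mouse chromosome 19: Ms4a4a, Ms4a4b, Ms4a4c, Ms4a6b, Ms4a6c, Ms4a6d and Ms4a7. They were taken by name from a table of 50854 rows, and all 7 have a row and passed the filter on low counts, 1 read or more per library on average, as did 18652 genes in all. The samples are bulk RNA-seq libraries made from sorted bone marrow cells of female REP mice, 8 to 12 weeks old. In these mice fluorescent proteins report several chemokine receptors, including CCR1 and CCR2, and the study sorted CD11b+ Ly6C hi cells that lacked Ly6G and SiglecF. CCR2+ve monocytes showed the CCR2 reporter alone and CCR1/2+ve monocytes showed both the CCR1 and the CCR2 reporter. Resting mice gave 4 libraries of each. Inflamed mice, which for a week had carried osmotic pumps releasing IL-3, IL-6, GM-CSF and IFN-α, gave 4 libraries of CCR2+ve monocytes and 3 of CCR1/2+ve monocytes. Another 4 libraries are labelled inflamed CCR1. The sources do not say whether libraries of a group came from separate mice, so p-values measure the spread between these libraries, which may be technical.

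MS4A proteins cross the membrane 4 times and sit beside other receptors, whose signalling or surface level they modulate. The best known are Ms4a1 (CD20) of B cells and Ms4a2, the beta chain of the high-affinity IgE receptor of mast cells and basophils. The Ms4a4, Ms4a6 and Ms4a7 genes are best known from monocytes and macrophages. Ms4a4a associates with the fungal receptor Dectin-1 in macrophages, Ms4a4b was described in T cells as a partner of the costimulatory receptor GITR, and Ms4a3 marks granulocyte-monocyte progenitors.

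In GRCm38, Ms4a7 (chr19:11321039-11336146, minus strand) comes before Ms4a4a (chr19:11375523-11392790), Ms4a4c (chr19:11404770-11427246), Ms4a4b (chr19:11443553-11467055), Ms4a6c (chr19:11469366-11482192) and Ms4a6b (chr19:11516512-11531256), which lie on the plus strand, and Ms4a6d (chr19:11586604-11604849, minus strand). Ms4a4d, which is not among the 7, lies between Ms4a6b and Ms4a6d. The genes are copies of each other in part, which bears on how far reads can be told apart. Of the 35-base words in the exons of Ms4a4c, 14.1% also occur in another gene, most of them in Ms4a4b. The share was 6.80% for Ms4a6b, 6.01% for Ms4a6d, 4.36% for Ms4a4b, 1.15% for Ms4a7 and 0% for Ms4a4a. Ms4a6c stands apart with 56.4%, because the antisense gene BE692007 covers 53.1% of its exonic bases. The strand used in counting is not recorded, so reads of Ms4a6c and BE692007 cannot be told apart there, and values of Ms4a6c are uncertain to that extent.

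The resemblance reaches into the promoters, and the windows of the closest pairs are shown for that reason. RefSeq windows of 300 bases (250 before the start site to 50 after it, GRCm38.p6) were matched for 6 members, and Ms4a7 has a second one. Ms4a6d had no matched window, so its promoter was not searched. The RefSeq start sites of Ms4a4c and Ms4a6b lie inside the gene spans given above. Capitals mark the longest run of identical bases that the members of a pair share.
Ms4a6b, chr19:11518309-11518608, plus strand: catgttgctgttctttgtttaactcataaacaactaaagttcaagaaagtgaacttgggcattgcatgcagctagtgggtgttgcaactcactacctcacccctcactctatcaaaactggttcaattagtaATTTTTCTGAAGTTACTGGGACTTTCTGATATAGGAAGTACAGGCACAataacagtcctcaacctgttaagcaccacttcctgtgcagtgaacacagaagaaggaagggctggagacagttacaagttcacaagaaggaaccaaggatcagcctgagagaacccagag
Ms4a6c, chr19:11469118-11469417, plus strand: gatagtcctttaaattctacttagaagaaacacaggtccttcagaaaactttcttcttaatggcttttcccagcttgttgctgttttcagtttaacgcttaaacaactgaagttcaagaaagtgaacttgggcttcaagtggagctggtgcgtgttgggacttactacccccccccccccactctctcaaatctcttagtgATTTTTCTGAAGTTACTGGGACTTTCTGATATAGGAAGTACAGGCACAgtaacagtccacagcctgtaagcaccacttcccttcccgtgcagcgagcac
Ms4a4b, chr19:11443308-11443607, plus strand: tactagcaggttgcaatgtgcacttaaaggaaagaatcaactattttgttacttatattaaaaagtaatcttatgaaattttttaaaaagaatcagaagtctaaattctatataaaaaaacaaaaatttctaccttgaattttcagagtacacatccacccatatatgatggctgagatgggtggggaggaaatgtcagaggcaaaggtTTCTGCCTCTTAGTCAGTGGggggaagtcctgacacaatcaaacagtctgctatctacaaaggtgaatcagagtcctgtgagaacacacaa
Ms4a4c, chr19:11407411-11407710, plus strand: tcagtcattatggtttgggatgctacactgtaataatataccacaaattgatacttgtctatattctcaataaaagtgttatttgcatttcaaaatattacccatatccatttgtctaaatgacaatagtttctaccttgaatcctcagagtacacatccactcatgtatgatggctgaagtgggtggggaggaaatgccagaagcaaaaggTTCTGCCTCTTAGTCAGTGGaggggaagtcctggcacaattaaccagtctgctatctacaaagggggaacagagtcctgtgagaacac

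The run shared by Ms4a6b and Ms4a6c is 48 bases long, and their windows hold 53 identical 12-base words. The run shared by Ms4a4b and Ms4a4c is 20 bases long, with 43 such words. The other 13 pairs share runs of 7 to 9 bases and no 12-base word. The windows were searched on both strands for short letter patterns of factors known from monocytes. The PU.1 letters AGGAAGT occur once in the Ms4a6c window, 17 bases before the start site and inside the shared run, and in the Ms4a6b window both at 86 bases before it (inside the run) and at 43. In all, 9.35% of 32851 windows hold them. The interferon response letters GAAANNGAA are held by the windows of Ms4a6b and Ms4a6c, in both as GAAAGTGAA (206 and 133 bases before the start), and by both windows of Ms4a7, against 8.56% of all windows. GGAANNGAA, which can overlap GAAANNGAA, was found in that of Ms4a6c alone (8.24% of all windows), and TTCNNNGAA of STAT factors and TTGCNNAA of C/EBP factors in none of the 6 (8.30% and 10.8% of all windows). A match is a string of letters and not a bound site.

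Depth was even, at 22268658 to 30502009 reads on genes per library. Levels are given as CPM, reads per 1000000 after TMM scaling of the 19 libraries, and log2 fold changes with their standard errors (SE) come from edgeR fits of the 2 groups compared, so the ratio of CPM means can differ slightly from the fitted fold. A gene passed the test at an adjusted p below 0.05. In bulk samples fewer cells that express a gene and less RNA per cell cannot be told apart. In the 15 libraries of the CCR2+ve and CCR1/2+ve groups the monocyte markers Ly6c2, Ccr2 and Csf1r were at 1246 to 2973, 474 to 1368 and 320 to 1743 CPM. The libraries labelled inflamed CCR1 went against a monocyte label in Csf1r and Ccr2. Ly6c2, at 1366 to 1484 CPM, was within the monocyte range. Csf1r was at 13.7 to 24.1 CPM and Ccr2 at 4.05 to 9.59 CPM there, whereas the granule genes Ngp and Elane reached 69730 to 100780 and 22051 to 26200 CPM. These libraries are therefore called by their label only and described last.

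In resting and inflamed monocytes the members differed widely in level. Per kb of exon that no other gene shares, resting CCR2+ve monocytes held on average 1439 CPM of Ms4a6c (675 CPM per kb if its shared bases are counted), 495 of Ms4a4c, 262 of Ms4a4a, 158 of Ms4a6b and 128 of Ms4a6d. Ms4a4b and Ms4a7 were far lower, at 4.75 and 2.39 CPM per kb. The lengths join all annotated exons of a gene (8780 bases for Ms4a4b, 836 for Ms4a4a), not those of the transcript in use. The order per kb depends on them. In CPM without division Ms4a6b, at a mean of 708, stood above Ms4a4a at 219, and Ms4a4b and Ms4a7 were still lowest, at 41.7 and 10.6. In inflamed CCR2+ve monocytes Ms4a6d, at 445 CPM per kb, stood above Ms4a4a at 343 and Ms4a6b at 209. It was behind Ms4a6c at 1528 (717 with shared bases) and Ms4a4c at 638. In CPM without division Ms4a6d, at a mean of 771, was below Ms4a6b at 932 there. Summed over the 7 members, libraries of resting CCR2+ve monocytes held 3028 to 4005 CPM, resting CCR1/2+ve 2079 to 2670, inflamed CCR2+ve 4204 to 5130 and inflamed CCR1/2+ve 4482 to 5281. Resting CCR1/2+ve libraries thus all lay below the other monocyte groups.

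**Figure D1:**
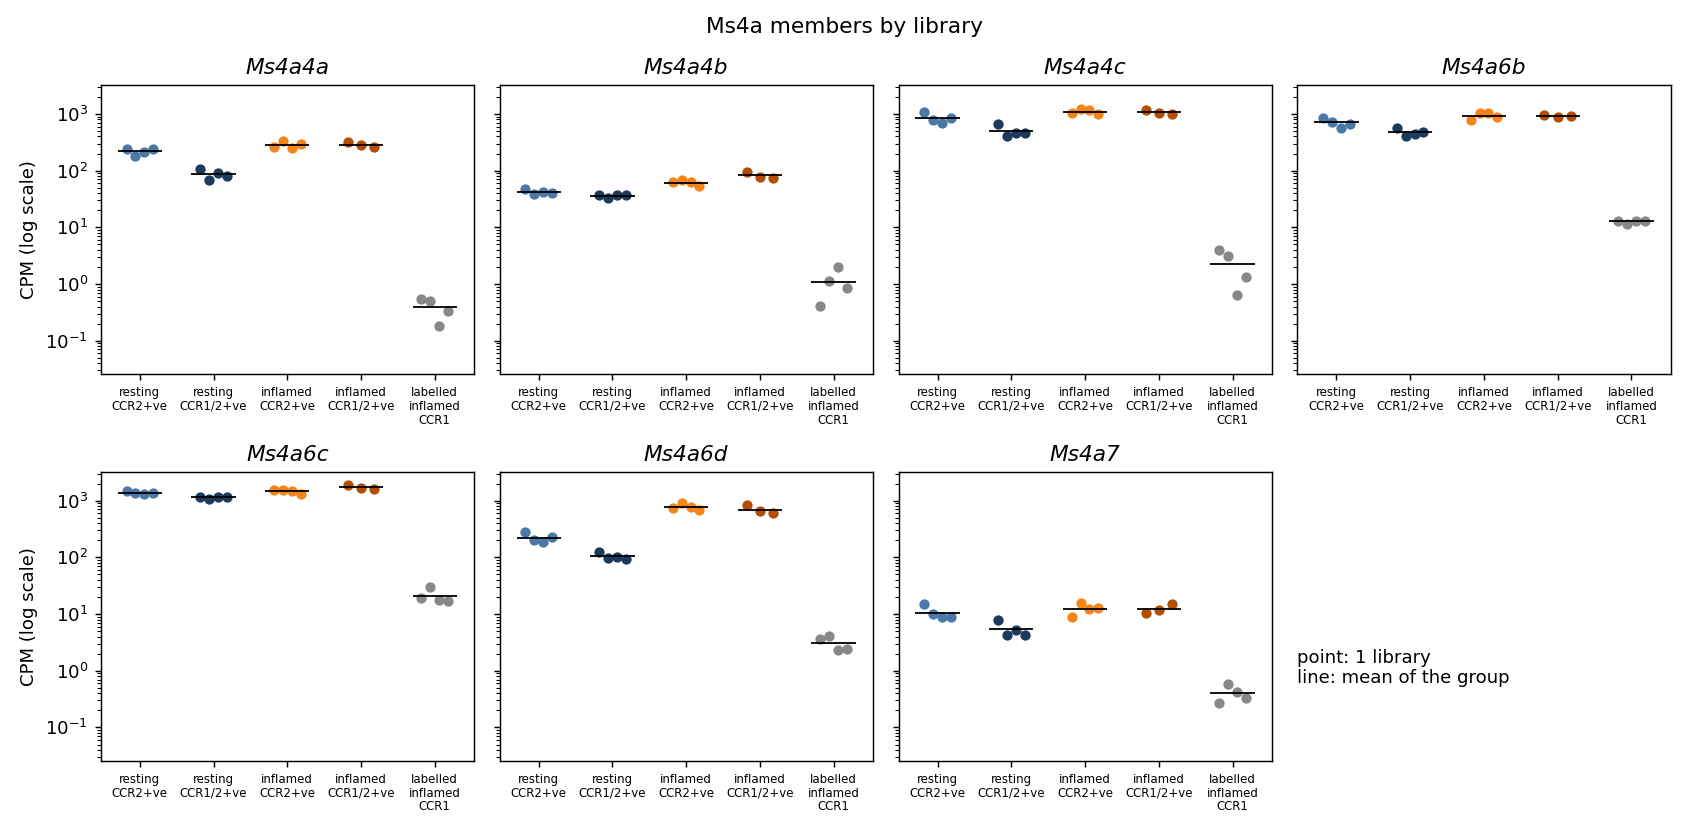
CPM (log axis) of each member in the 19 libraries, with 1 point per library and a line at the group mean. In all 7 panels the resting CCR1/2+ve libraries lie below the resting CCR2+ve libraries, and the libraries labelled inflamed CCR1 lie far below every monocyte group.

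The comparison of resting CCR1/2+ve with resting CCR2+ve monocytes addresses how the populations differ without inflammation. All 7 members had lower fitted values in the CCR1/2+ve cells and 5 passed the test as lower (Ms4a4a, Ms4a4c, Ms4a6b, Ms4a6d and Ms4a7), against 8.44% of all genes. Ms4a4a and Ms4a6d were also at least 1 lower on the log2 scale, which 1.9% of all genes were. The median log2 difference of the members was -0.70, against 0.03 over all genes.

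Ms4a4a, the partner of Dectin-1, differed most. Its resting CCR2+ve libraries stood at 244.9, 178, 213 and 239.9 CPM and its resting CCR1/2+ve libraries at 105, 67.5, 91.6 and 80.3 CPM. The groups did not overlap, and the log2 difference was -1.27 (SE 0.13, adjusted p = 9.7e-05), or 2.41-fold lower. Ms4a6d was at 277, 199, 187 and 226 CPM in CCR2+ve and at 123, 97.8, 100.3 and 95.5 CPM in CCR1/2+ve cells. Again every CCR1/2+ve library was lower, with a log2 difference of -1.02 (SE 0.13, adjusted p = 0.000266).

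The other members differed by less. Ms4a4c stood at 1093, 787, 684 and 849 CPM against 655, 408, 463 and 469 CPM, a log2 difference of -0.70 (SE 0.16, adjusted p = 0.0107). Ms4a6b stood at 856, 726, 572 and 678 CPM against 565, 412, 444 and 474 CPM, a log2 difference of -0.50 (SE 0.13, adjusted p = 0.0193). Ms4a7, a gene of mature macrophages, was scarce, with 210 to 374 reads per CCR2+ve library and 136 to 242 per CCR1/2+ve library. Its levels were 15.03, 9.95, 8.86 and 8.73 CPM against 7.94, 4.25, 5.33 and 4.19 CPM, a log2 difference of -0.90 (SE 0.24, adjusted p = 0.0237). The calls of Ms4a6b and Ms4a7 were weak. Without resting CCR2+ve replicate 1, the highest library for both, Ms4a6b had an adjusted p of 0.0693 and Ms4a7 of 0.0972, and both also missed the threshold without resting CCR1/2+ve replicate 2 (0.0536 and 0.0687) or 3 (0.0513 and 0.0516). Ms4a7 missed it without CCR1/2+ve replicate 4 as well (0.0672).

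Ms4a4b and Ms4a6c did not pass. Ms4a4b stood at 47.0, 38.4, 41.7 and 39.9 CPM in CCR2+ve and at 37.3, 33.0, 37.0 and 36.5 CPM in CCR1/2+ve libraries (log2 difference -0.14, SE 0.09, adjusted p = 0.332). Ms4a6c stood at 1472, 1358, 1322 and 1384 CPM against 1177, 1056, 1181 and 1163 CPM (log2 difference -0.20, SE 0.07, adjusted p = 0.088). Replicate numbers paired the resting libraries, and with the number as a block Ms4a6c did pass (log2 difference -0.20, adjusted p = 0.00469). The levels of both groups were apart for all 7 members, as for 20.2% of all genes. The exact two-sided permutation test, which ignored the pairing, gave 0.0286 for each member, the smallest p that 4 against 4 unpaired libraries allow.

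Other gene lists moved in the same comparison. Of 20 interferon-stimulated genes 13 passed the test as lower in resting CCR1/2+ve cells and 0 as higher (median log2 difference -0.90), and of 12 markers of nonclassical monocytes 9 passed as lower and 1 as higher. The 4 early granule genes summed to 2967 to 6349 CPM in CCR1/2+ve libraries and 397 to 1550 CPM in CCR2+ve libraries, and the 10 neutrophil markers to 2388 to 2992 and 586 to 882 CPM. Of these neutrophil markers 5 passed as higher and 0 as lower, and the means of Ltf, Ngp and Mmp8 were lower in CCR1/2+ve cells. The 9 dendritic cell markers had lower sums in CCR1/2+ve libraries, with 43.7 to 59.0 against 136 to 210.04 CPM, and B cell markers summed to 593 to 717 against 757 to 1012 CPM. The part of these cells and programs in the members' difference was not tested.

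Inflamed against resting monocytes compares the 2 states within each population, with the scaling taken as given. The sources do not say whether the resting mice carried vehicle pumps. Effects of the cytokines, the implant and the handling of the groups cannot be told apart. In CCR1/2+ve monocytes all 7 members rose, against 20.6% of all genes that passed as higher. Ms4a4a, Ms4a4b, Ms4a6d and Ms4a7 rose by at least 1 on the log2 scale, as did 9.16% of all genes. The members' median log2 change was 1.06, while that of all genes was -0.25, so the rise stands against a table in which most genes were fitted lower. Scaling by library totals alone moved the median of all genes to -0.46 and left all 7 members past the test, 2 of them by at least 1. It also turned the 3844 genes higher and 4742 lower into 2997 and 5639. With 3 libraries against 4, the exact permutation test cannot go below 0.0571, which each member reached. Groups were apart for all 7 members, as for 50.1% of all genes.

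Ms4a6d rose most. Its inflamed CCR1/2+ve libraries stood at 826, 655 and 607 CPM, all far above the resting CCR1/2+ve libraries, and the log2 change was 2.61 (SE 0.13, adjusted p = 3.0e-08), or 6.09-fold. Ms4a4a stood at 316, 278 and 259 CPM, a change of 1.59 (SE 0.14, adjusted p = 2.2e-06). Ms4a4b stood at 95.5, 77.7 and 74.6 CPM, a change of 1.07 (SE 0.11, adjusted p = 6.2e-06). Ms4a4b is a gene known from T cells, and the 10 markers of T and NK cells summed to 1.35 to 4.86 CPM in all monocyte libraries, with the T cell gene Cd3e at 0 to 0.344 CPM.

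Ms4a7 rose to 10.3, 11.9 and 15.1 CPM (log2 change 1.06, SE 0.26, adjusted p = 0.00516). Ms4a4c rose to 1156, 1039 and 994 CPM (0.96, SE 0.15, adjusted p = 0.000318) and Ms4a6b to 974, 883 and 908 CPM (0.83, SE 0.11, adjusted p = 7.9e-05). The smallest change was that of the most abundant member, Ms4a6c, to 1904, 1663 and 1624 CPM (0.47, SE 0.08, adjusted p = 0.000483). BE692007, which overlaps it, was at 110 to 153 CPM in resting and 128 to 153 CPM in inflamed CCR1/2+ve libraries.

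In CCR2+ve monocytes 3 of the 7 members rose, against 21.9% of all genes that passed as higher, and Ms4a6d alone rose by at least 1, as did 9.37% of all genes. Ms4a6d stood at 742, 898, 770.4 and 676 CPM in inflamed CCR2+ve libraries, with no overlap with the resting libraries and a log2 change of 1.72 (SE 0.13, adjusted p = 4.3e-08), or 3.30-fold. Ms4a4b rose to 63.2, 68.0, 61.7 and 54.0 CPM (0.49, SE 0.11, adjusted p = 0.00156). Ms4a4a, at 259, 339, 249.6 and 297 CPM, rose by a little (0.32, SE 0.12, adjusted p = 0.0456), and this call is weak. It was lost without resting CCR2+ve replicate 2 (adjusted p = 0.0637) or 3 (0.0519) and without inflamed CCR2+ve replicate 2 (0.138) or 4 (0.0816).

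The remaining members did not pass in CCR2+ve cells. Ms4a4c, at 1024, 1212, 1168 and 992 CPM, had a log2 change of 0.29 (SE 0.13, adjusted p = 0.0892). Ms4a6b, at 776, 1028, 1051 and 873 CPM, had 0.32 (SE 0.14, adjusted p = 0.0633). Resting CCR2+ve replicate 1 was the highest resting library of both genes, and without it both passed (0.51, adjusted p = 0.00413, and 0.50, adjusted p = 0.00821). Ms4a6b also passed without resting CCR2+ve replicate 2 (0.0342) and without inflamed CCR2+ve replicate 1 (0.0288). Ms4a6c stood at 1549, 1569, 1461 and 1299 CPM, with a log2 change of 0.01 (SE 0.09, adjusted p = 0.929), and Ms4a7 at 8.81, 15.7, 12.1 and 13.0 CPM, with 0.14 (SE 0.21, adjusted p = 0.617). The resting and inflamed libraries of both overlapped.

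**Figure D2:**
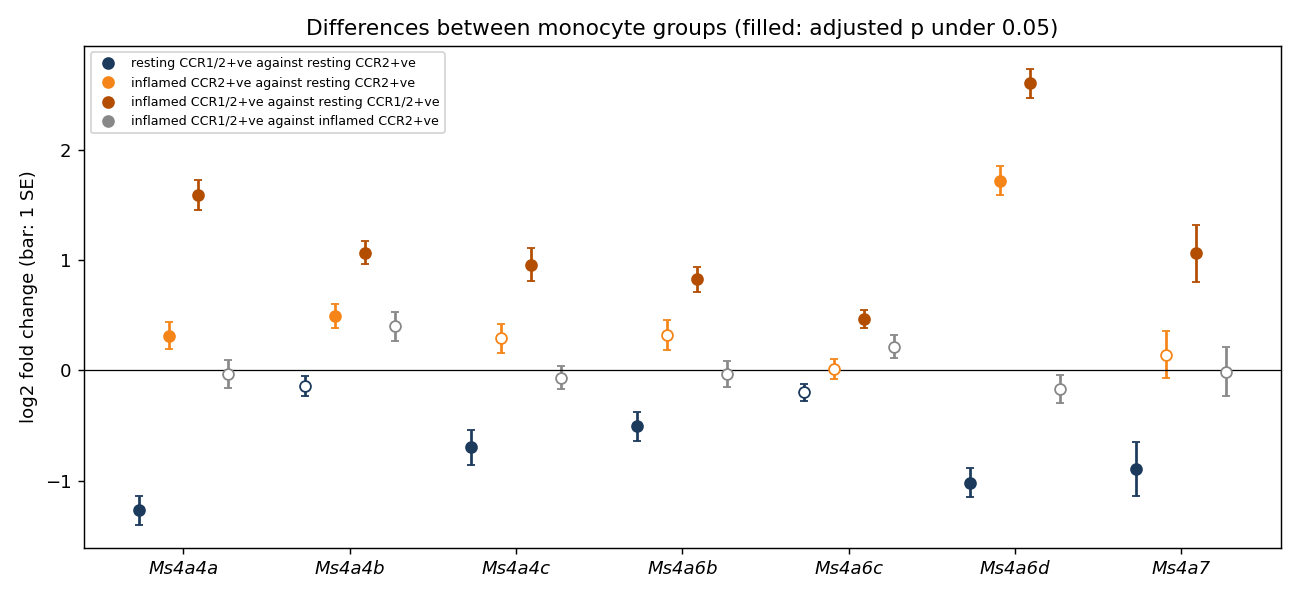
Fitted log2 fold change of each member (vertical axis, bars of 1 SE) in the 4 comparisons among monocyte groups, with filled points where the adjusted p was below 0.05. All 7 members are lower in resting CCR1/2+ve than in resting CCR2+ve cells and higher in inflamed than in resting CCR1/2+ve cells, and Ms4a6d stands highest in both comparisons of inflamed with resting cells.

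The interaction term tests whether the change with inflammation differed between the populations, and resting and inflamed libraries of both enter it. For all 7 members the fitted change was larger in CCR1/2+ve cells, and 1 member, Ms4a4a, passed the test (difference of log2 changes 1.23, SE 0.19, adjusted p = 0.018), against 0.241% of all genes that passed in that direction. Its call was lost without inflamed CCR1/2+ve replicate 3 (difference 1.25, adjusted p = 0.0857), and in that fit 0 of the 18652 genes passed in either direction. Ms4a6d had a difference of 0.85 (SE 0.19, adjusted p = 0.0588), and it passed without resting CCR1/2+ve replicate 1 or without resting CCR2+ve replicate 2 (adjusted p = 0.0409 for each). The other 5 had differences of 0.41 to 0.88 with adjusted p of 0.115 to 0.299.

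The inflamed populations were compared with each other as well. Between inflamed CCR1/2+ve and inflamed CCR2+ve monocytes 0 of the 7 members passed, against 0.188% of all genes in either direction. At an unadjusted p below 0.05, 1 of the 7 (Ms4a4b) and 1675 of all genes were found, and DESeq2 called 0 members too. Fitted log2 differences ran from -0.17 (Ms4a6d, SE 0.13) to 0.40 (Ms4a4b, SE 0.13, adjusted p = 0.342). Ms4a6c had a log2 difference of 0.22 (SE 0.10, adjusted p = 0.561). All 3 inflamed CCR1/2+ve libraries were higher than the 4 inflamed CCR2+ve libraries for Ms4a4b and Ms4a6c, and the groups overlapped for the other 5. How many of all genes were apart in this comparison was not counted, so nothing about these members is concluded from it. Neutrophil markers summed to 2356 to 2930 CPM in inflamed CCR1/2+ve and to 1197 to 1520 CPM in inflamed CCR2+ve libraries. Of the 10 markers 2 passed as higher and 0 as lower, and Mmp8 alone averaged 1606 and 1044 CPM in these groups. A missed threshold does not show that the populations were alike.

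The order of group means was inflamed CCR2+ve, inflamed CCR1/2+ve, resting CCR2+ve and resting CCR1/2+ve for Ms4a4a, Ms4a4c, Ms4a6b and Ms4a6d. For Ms4a4b, Ms4a6c and Ms4a7 the inflamed CCR1/2+ve group came first. Resting CCR1/2+ve was the lowest monocyte group for all 7. Inflamed CCR1/2+ve and resting CCR2+ve libraries, which no comparison of the study sets side by side, overlapped for Ms4a4c and Ms4a7. The libraries of inflamed and resting CCR2+ve cells overlapped for Ms4a4c, Ms4a6b, Ms4a6c and Ms4a7. The share of all genes that overlapped was not counted for these pairs of groups.

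The mix of members changed as well. Ms4a6d made up 6.43% ± 0.41 (SD, n = 4) of the members' summed CPM in resting CCR2+ve libraries and 4.43% ± 0.27 (n = 4) in resting CCR1/2+ve libraries. Its share was 16.6% ± 0.66 (n = 4) in inflamed CCR2+ve and 14.5% ± 1.07 (n = 3) in inflamed CCR1/2+ve libraries. Ms4a6c fell in share from 40.5% ± 2.85 to 31.8% ± 2.17 in CCR2+ve and from 49.0% ± 3.27 to 36.1% ± 0.096 in CCR1/2+ve libraries. Read for read, there were 0.160 reads of Ms4a6d per read of Ms4a6c in resting CCR2+ve libraries and 0.525 in inflamed ones, with ranges of 0.142 to 0.188 and 0.479 to 0.572. The share of Ms4a6b hardly moved, with means between 19.3% and 20.5% in the 4 monocyte groups.

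**Figure D3:**
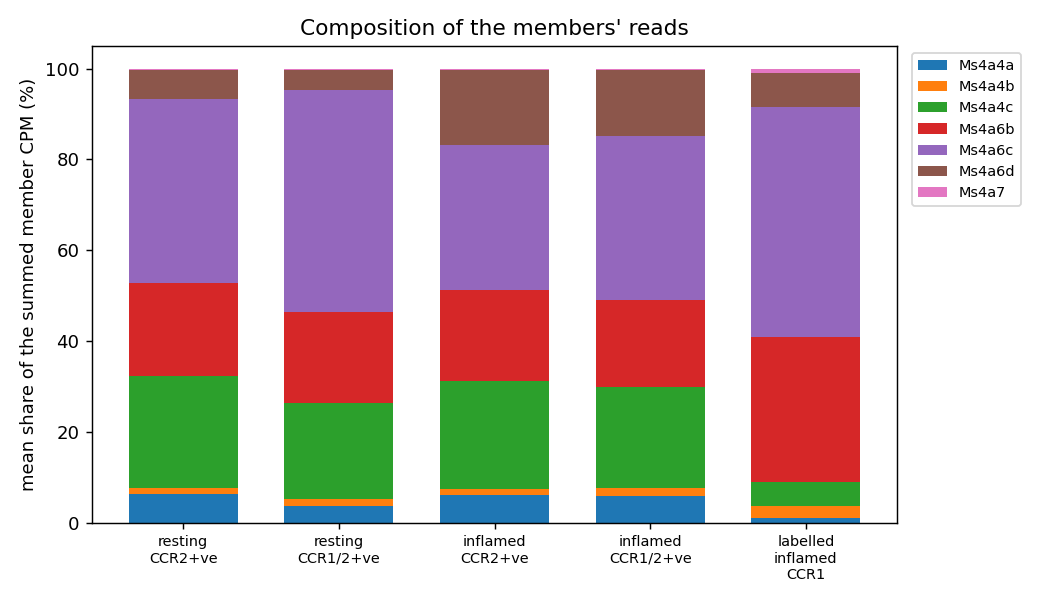
Mean share of each member in the summed CPM of the 7 members (vertical axis, %) for each of the 5 groups. The band of Ms4a6d widens from 6.43% to 16.6% between resting and inflamed CCR2+ve libraries, while that of Ms4a6b stays near 20% in the 4 monocyte groups.

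Markers of other programs moved with inflammation too. Of the 20 interferon-stimulated genes 16 rose and 1 fell in CCR1/2+ve cells (median log2 change 1.57), and 10 rose and 2 fell in CCR2+ve cells (median 0.50). Summed, they reached 4235 to 5543 CPM in inflamed against 1154 to 2063 CPM in resting CCR1/2+ve libraries, and 3616 to 6133 against 2187 to 3727 CPM in CCR2+ve libraries. The 5 markers of basophils and mast cells summed to 103 to 236 CPM in inflamed monocyte libraries and 1.17 to 21.1 CPM in resting ones. Of these markers 4 rose and 1 fell in CCR2+ve cells, and 3 rose and 1 fell in CCR1/2+ve cells. Erythroid markers summed to 0.679 to 1.70 CPM in inflamed and 19.2 to 104 CPM in resting monocyte libraries. Of 9 dendritic cell markers, 6 fell and 1 rose in CCR2+ve cells and 4 fell and 1 rose in CCR1/2+ve cells. Their sum was 75.5 to 108 CPM in inflamed against 136 to 210.04 CPM in resting CCR2+ve libraries, and 62.7 to 66.6 against 43.7 to 59.0 CPM in CCR1/2+ve libraries, and Clec10a, a marker of the list, made up most of the inflamed sums. Their part in the members' change was not tested.

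Of 5 genes of known or proposed partners, 0 passed between the resting populations. Clec7a, which encodes Dectin-1, was at 179 to 454 CPM in resting and 297 to 463 CPM in inflamed monocytes and passed in 0 of the 4 comparisons among monocyte groups. Its log2 difference between the resting populations was -0.41 (SE 0.16, adjusted p = 0.115). Trem2, a lipid receptor of macrophages, rose in CCR2+ve cells (0.47, SE 0.16, adjusted p = 0.0286) and had a change of 0.27 in CCR1/2+ve cells (SE 0.13, adjusted p = 0.102). Its adaptor Tyrobp fell in CCR2+ve cells (-0.34, SE 0.09, adjusted p = 0.00376), and the kinase gene Syk rose in both, by 0.34 (SE 0.11, adjusted p = 0.022) and 0.57 (SE 0.11, adjusted p = 0.000937). Tnfrsf18, which encodes the Ms4a4b partner GITR, was at 1.33 to 4.08 CPM in monocytes and passed in none of these comparisons.

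Elsewhere in the family, 11 further Ms4a genes of the cluster and the related Tmem176a and Tmem176b of chromosome 6 have a row. Ms4a5, Ms4a10, Ms4a13 and Ms4a18 had 0 reads in all 19 libraries, which allows up to 3 reads in each. Ms4a1, Ms4a4d, Ms4a14 and Ms4a15 had group means below 1 CPM. Ms4a8a was the only other gene of the cluster that was abundant in monocytes in the way of the members. It stood at 92.8, 99.6, 138 and 149.8 CPM in resting CCR2+ve and at 54.4, 57.2, 80.5 and 82.0 CPM in resting CCR1/2+ve libraries (log2 difference -0.73, SE 0.16, adjusted p = 0.00685). Unlike the members it fell with inflammation in CCR2+ve cells (-0.39, SE 0.14, adjusted p = 0.0381), to 104, 106, 97.5 and 79.0 CPM, and its change in CCR1/2+ve cells was 0.18 (SE 0.14, adjusted p = 0.326).

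Tmem176a and Tmem176b, whose exons overlap by 81 bases, were lower in resting CCR1/2+ve cells by more than any member, at -1.47 (SE 0.12, adjusted p = 3.4e-05) and -1.70 (SE 0.15, adjusted p = 4.7e-05). Tmem176b, at 110 to 127 CPM in inflamed CCR2+ve and 56.4 to 59.5 CPM in inflamed CCR1/2+ve libraries, stayed lower in CCR1/2+ve cells after inflammation, by 2.002-fold (adjusted p = 0.00345). Tmem176a had -0.68 there (SE 0.13, adjusted p = 0.0712).

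Ms4a2 and Ms4a3 are the next genes beyond Ms4a6d. Ms4a3, the progenitor gene, ran opposite to the members among monocytes. It stood at 11.3, 24.8, 9.84 and 5.82 CPM in resting CCR2+ve and 73.8, 138, 54.8 and 60.9 CPM in resting CCR1/2+ve libraries, a log2 difference of 2.74 (SE 0.50, adjusted p = 0.00813). It fell with inflammation by 1.61 in CCR2+ve (SE 0.50, adjusted p = 0.0209) and by 2.58 in CCR1/2+ve cells (SE 0.56, adjusted p = 0.00441). Ms4a2, the IgE receptor chain, rose from at most 11 to 29 to 62 reads per CCR2+ve library (log2 change 3.28, SE 0.60, adjusted p = 0.000335) and by 2.81 in CCR1/2+ve cells (SE 0.75, adjusted p = 0.0112), as the summed basophil and mast cell markers did.

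**Figure D4:**
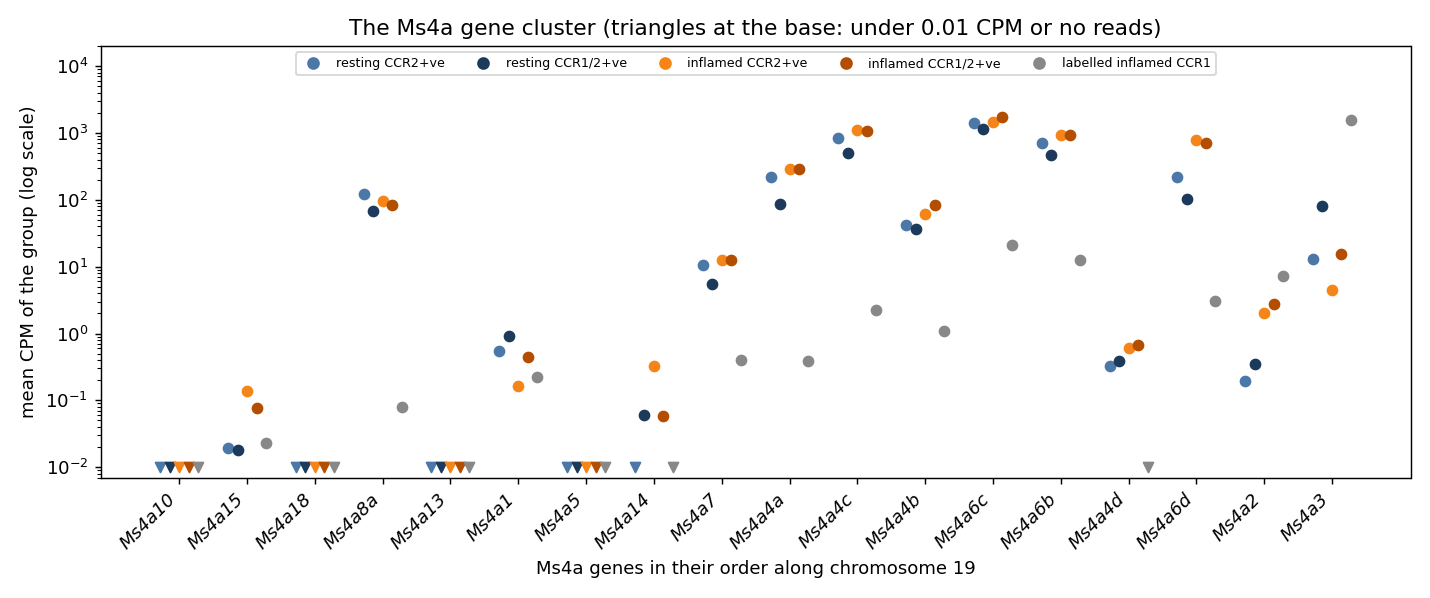
Mean CPM (log axis) of the 18 Ms4a genes with a row in each of the 5 groups, in their order along chromosome 19. From Ms4a7 to Ms4a6b and at Ms4a6d the monocyte groups lie high and the libraries labelled inflamed CCR1 low, and at Ms4a3 the latter stand at 1539 CPM.

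The libraries labelled inflamed CCR1 had almost none of the members. Ms4a4a had 12, 11, 4 and 7 reads there, Ms4a7 6, 13, 9 and 7, and Ms4a4b 9, 25, 44 and 18. Ms4a4c had 87, 69, 14 and 28 reads, where inflamed CCR2+ve libraries had 23040 to 26068. The members with the highest CPM there were Ms4a6c, at 19.1, 30.6, 18.02 and 16.9 CPM, and Ms4a6b, at 13.1, 11.7, 12.8 and 13.2 CPM. Ms4a6d was at 3.59, 4.07, 2.31 and 2.40 CPM. No library came near the range of any monocyte group.

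All 7 members passed as lower by at least 1 on the log2 scale against inflamed CCR2+ve cells (16.8% of all genes) and against inflamed CCR1/2+ve cells (14.6% of all genes). Against CCR2+ve cells the log2 differences were -9.49 for Ms4a4a (SE 0.22, adjusted p = 3.4e-15), -8.90 for Ms4a4c (SE 0.50), -7.95 for Ms4a6d (SE 0.20) and -6.19 for Ms4a6b (SE 0.14). They were -6.11 for Ms4a6c (SE 0.20), -5.79 for Ms4a4b (SE 0.29) and -4.92 for Ms4a7 (SE 0.29), and the largest adjusted p was 1.3e-06, for Ms4a4c. Against CCR1/2+ve cells they ran from -9.48 to -4.93. These comparisons share libraries with the one between inflamed populations.

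The neighbour Ms4a3 was at 1595, 1559.6, 1570.4 and 1432 CPM in these libraries, 8.42 higher on the log2 scale than in inflamed CCR2+ve cells (SE 0.42, adjusted p = 2.1e-07). Ms4a2 was 1.83 higher (SE 0.28, adjusted p = 3.4e-05), and Ms4a8a had 0, 2, 5 and 0 reads against 1835 to 2338. Neutrophil markers summed to 103165 to 151221 CPM and early granule genes to 42964 to 51932 CPM, against 1197 to 1520 and 271 to 550 CPM in inflamed CCR2+ve libraries. Of the 10 neutrophil markers 9 passed as higher and 1 as lower, and Mmp8 was at a mean of 9.10 CPM against 1044 CPM. The members' low level in these libraries and the identity of the sorted cells cannot be told apart.

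The genes most like 6 of the members were found by the root mean square difference of the 5 group means of log2(CPM + 1), each profile centred on its own mean, among 7674 other genes with a mean of at least 10 CPM. They were Clec4a1 (0.24) and Sirpb1c (0.24) for Ms4a4a, Gm15448 (0.093) and F13a1 (0.11) for Ms4a4b, and Clec4a3 (0.18) and Ctss (0.28) for Ms4a4c. Pld4 (0.086) and Ifi30 (0.14) were nearest to Ms4a6b, Ahnak (0.11) and Slc11a1 (0.13) to Ms4a6c, and Trim30d (0.12) and Evi2a (0.13) to Ms4a7. Each of these genes was nearer to its member than any other member was. Picking from 7674 genes against a handful of members favours this outcome, so it does not show how alike the members are. The nearest members were Ms4a4c for Ms4a4a (0.45) and Ms4a6c for Ms4a6b (0.23). The libraries labelled inflamed CCR1 weigh most in this measure, and the same 19 libraries stand behind every value.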

How the data were processed

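Bulk RNA-seq counts of sorted bone marrow cells were analysed, in 5 groups taken from the sample titles. The authors filtered reads with fastp, aligned them to GRCm38 with STAR (2.7.10a in the submitters' processing notes), kept uniquely mapped reads with at least 35 matched bases, and deposited raw counts per gene of Ensembl release 91, with no normalization. The table holds 50854 rows. Of its count columns, 1 has no sample record and was not used. Chromosome 19 is analysed in part (1090 of 1395 annotated genes).

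The 18652 genes with 1 read or more per library on average were tested with edgeR 4.0.16 in R 4.3.3 (TMM, robust quasi-likelihood F test, two-sided, Benjamini-Hochberg adjustment), on the 2 groups compared and, for the interaction, on the 15 monocyte libraries. SE is the log2 fold change over the root of F. For single members, CPM values were also compared by exact permutation, two-sided and unpaired (scipy 1.17.1). All 7 members were named in every comparison, with all other Ms4a genes. Other lists were given as counts, medians and defining markers. The genes most like Ms4a6d are not reported here. Members and lists were chosen with earlier results of these data known. Scripts were tested on simulated data. Exon overlaps are from GENCODE M21 (GRCm38), promoters from RefSeq.

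Whether replicate numbers pair libraries was checked from correlations of deviations from group means over 7685 genes. Same numbers correlated at 0.334 to 0.594 over 4 pairs between the resting populations, and at 0.161 to 0.287 over 4 pairs between libraries labelled inflamed CCR1 and inflamed CCR2+ve, so these were taken as paired. Each other comparison had a pair below 0.1. DESeq2 1.42.0, other scalings and filters, 1 fit of all libraries, the replicate block and leaving out each library were tried, and GC offsets were added after seeing the data. With 7 to 8 libraries per comparison, depth of 22268658 to 30502009 reads limits only the scarce members, Ms4a7 above all.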

Additional observations from a re-analysis of the deposited data

Results flagged for a closer look

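In 28 sets of 4 libraries (7 members in 4 groups), 2 had a library apart from the other 3 by Dixon's criterion, and chance alone would give about 1 in 20. Ms4a6c was at 1056 CPM in resting CCR1/2+ve replicate 2 and at 1163 to 1181 CPM in the other 3 libraries. Ms4a6c was also at 30.6 CPM in replicate 2 of the libraries labelled inflamed CCR1 and at 16.9 to 19.1 CPM in the others. BE692007, which overlaps Ms4a6c, had 72 reads in the latter library, the most of the 4, and its part was not tested. The change with inflammation differed between the populations for Ms4a4a, by 1.23 on the log2 scale (larger in CCR1/2+ve than in CCR2+ve cells, adjusted p = 0.018, edgeR).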

How the results depend on the processing

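Of 854 refitted values of single members, 790 kept their direction and their side of the threshold, 18 were no longer past it, 32 came to pass it and 14 changed sign; the comparisons with the libraries labelled inflamed CCR1 and the rise in CCR1/2+ve cells had no change among their members. Ms4a6c, inflamed against resting CCR2+ve, turned to -0.0595 with library totals and -0.00846 with edgeR's own filter, and with a library left out it ran from -0.0114 to 0.118. Between the inflamed populations Ms4a7 turned to 0.00352 without a filter and to 0.00399 in the fit of all libraries, and with a library left out Ms4a7 ran from -0.161 to 0.122, Ms4a4a from -0.0994 to 0.0644 and Ms4a6b from -0.115 to 0.0463. None of these values passed the test.

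With library totals alone 3 members were lower in resting CCR1/2+ve cells (1 of them by at least 1, also with edgeR's filter), and 2 rose by at least 1 in CCR1/2+ve cells. GC offsets, with or without the replicate block, gave 5 rises in CCR2+ve cells. The interaction passed for 4 members with DESeq2, for 2 with RLE size factors, without a filter and with GC offsets, and for 5 with GC offsets and the block. With a library left out the counts ran from 3 to 5 (1 to 3 by at least 1) lower in resting CCR1/2+ve cells, from 2 to 5 higher in CCR2+ve cells, and from 0 to 2 (0 to 1 by at least 1) for the interaction. With the replicate block 5 members passed the interaction (Ms4a4a 1.20, Ms4a4b 0.54, Ms4a4c 0.595, Ms4a6c 0.43 and Ms4a6d 0.81). That block joined same-numbered libraries of both populations within resting and within inflamed mice. Same numbers correlated at 0.334 to 0.594 between the resting populations and at -0.32 to 0.527 between the inflamed ones. Pairing was thus not shown for the inflamed libraries. Within a population the block joined libraries across inflammation, where pairing was not shown either (-0.291 to 0.274 in CCR2+ve and 0.0769 to 0.208 in CCR1/2+ve cells). With that block Ms4a4a in CCR2+ve cells had an adjusted p of 0.0513 (edgeR). Beside Ms4a6c in resting cells, the pairing changed no other call between paired groups. Ms4a4c in resting cells had an adjusted p of 0.0563 in the fit of all libraries. Over all genes, calls between the inflamed populations went from 12 lower and 23 higher to 120 and 138 with DESeq2, 81 and 141 with the block and 37 and 83 without a filter, and those of the interaction from 29 and 45 to 166 and 379, 136 and 334 and 53 and 92. The cause of these changes was not tested.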
